A study of Mus musculus with 8 samples.

Results

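Entry of a T cell into division is decided in G1, the phase before DNA replication, and the 10 genes described here encode the core of that decision. They are the D-type cyclin genes *Ccnd2* and *Ccnd3*, the kinase genes *Cdk4* and *Cdk6*, the retinoblastoma gene *Rb1*, and the CDK inhibitor genes *Cdkn1a*, *Cdkn1b*, *Cdkn2a*, *Cdkn2c* and *Cdkn2d*. The members were chosen by symbol from 48321 symbols in the count tables, all 10 symbols were found, and 9 passed the filter on low counts and were tested among 12597 genes. *Cdkn2a* did not pass it.

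RNA was sequenced from splenic CD8+ T cells of C57BL/6 mice in 8 libraries, 2 in each of 4 groups. Cells were taken either at day 0 or at day 5, and the genotype was labelled WT or KO. The series describes CD8+ T cells cultured in vitro from *Satb1* F/F; *E8I-cre* animals, that is, animals with floxed alleles of the chromatin organiser gene *Satb1* and a Cre recombinase transgene whose *E8I* enhancer is active in mature CD8 lineage cells. The title of the series calls the cells stimulated, but the stimulus is not given in the sources used here, and neither is the number of animals behind a library, so p-values measure only the spread between these libraries, which may be technical.

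*Satb1*, the targeted gene, was measured first because it checks the labels. At day 0 it was at 97.8 and 91.6 CPM (counts scaled to a common library total) in the WT libraries and at 144 and 125 CPM in the labelled-KO libraries, so at day 0 the labelled-KO libraries were the higher ones. At day 5 it was at 96.5 and 116 CPM in WT and at 56.5 and 62.3 CPM in the labelled-KO libraries. The log2 fold change was 0.51 ± 0.15 (SE, FDR = 0.125) at day 0 and -0.84 ± 0.15 (FDR = 0.0162) at day 5. The day 5 call was lost without replicate 2 of WT (FDR = 0.0848) and without replicate 1 or 2 of the labelled-KO libraries of that day (FDR = 0.174 and 0.156). The day 0 values go against the label, and counts over the whole gene do not show whether a floxed part was missing. The wording "labelled-KO" is therefore kept throughout, and every direction between genotypes given here rests on those labels.

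Each library held between 4170126 and 11117971 gene counts, so that 3 counts, taken as the floor of detection, corresponded to between 0.257 and 0.723 CPM. The summed level of 5 CD8 T-cell markers (*Cd8a*, *Cd8b1*, *Cd3e*, *Cd3g*, *Cd3d*) was between 9521 and 10683 CPM at day 0 and between 6160 and 6871 CPM at day 5. Summed markers of CD4 T cells, NK cells and erythroid cells reached at most 3.0, 1.43 and 0.904 CPM, and those of myeloid cells ranged from 4.06 to 19.0 CPM. The B-cell list was carried by *Cd79b*, and its other 4 genes summed to at most 3.62 CPM. The floors, and the exact interval given for a ratio of *Cdkn1a* counts, cover counting error only, whereas the intervals of log2 fold changes include the spread between libraries.

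As background, D-type cyclins accumulate when a T cell receives growth signals, and they activate the kinases CDK4 and CDK6. These kinases phosphorylate the retinoblastoma protein, which otherwise holds the E2F transcription factors in check, and E2F then drives the genes of DNA replication. Inhibitors of the INK4 family (*Cdkn2a*, *Cdkn2c*, *Cdkn2d*) bind CDK4 and CDK6 directly, whereas those of the Cip/Kip family (*Cdkn1a*, *Cdkn1b*) bind cyclin-CDK complexes, above all those of CDK2. Resting lymphocytes are known to carry p27, the product of *Cdkn1b*, and to have little division machinery.

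**Figure D1:**
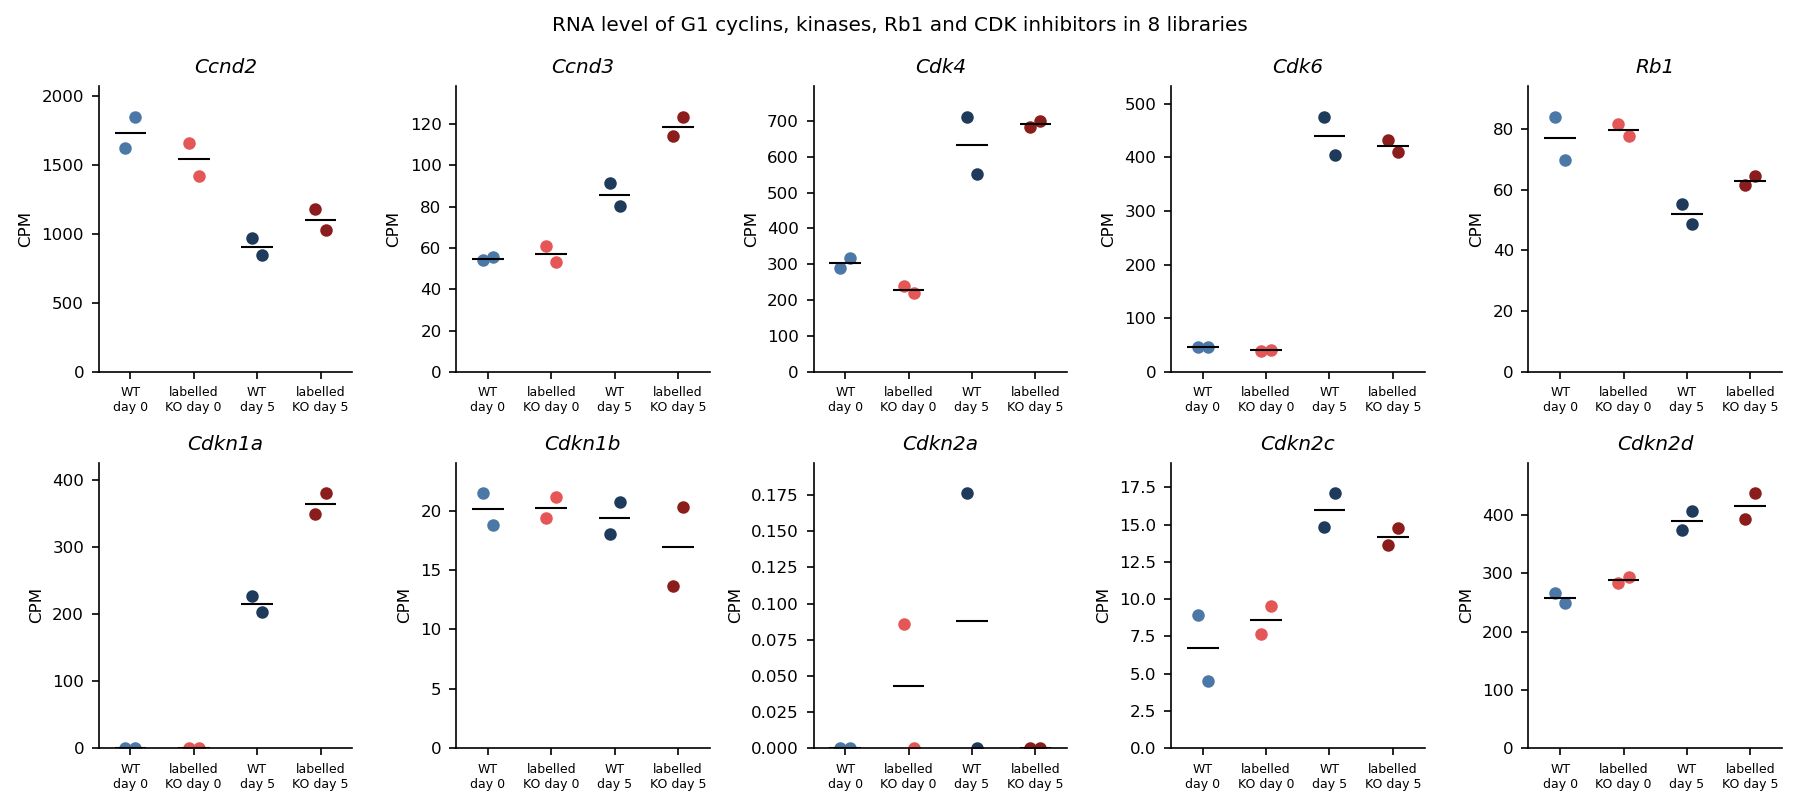
RNA level of the 10 genes in every library, in CPM on linear axes that start at 0 and differ between panels. Points are libraries, coloured by group, and horizontal bars are the means of 2 libraries. *Cdk6* and *Cdkn1a* separate day 5 from day 0 most widely, *Cdkn1b* does not separate any groups, and *Cdkn2a* never exceeded 1 count in a library.

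Between day 0 and day 5 the family changed its make-up. *Cdk4*, *Cdk6*, *Ccnd3*, *Cdkn1a* and *Cdkn2d* rose in both genotypes, *Ccnd2* fell in both, and *Cdkn1b* was called in neither. In WT, 8 of the 9 tested members passed the test, 6 higher and 2 lower, against 48.3% of all genes tested (24.7% higher and 23.6% lower). Of the same 9, labelled-KO libraries gave 6 calls, 5 higher and 1 lower, against 50.2% of all genes (26.2% higher and 24% lower). Day 5 and day 0 values did not overlap for 8 of 9 members in each genotype, against 73.7% and 77.9% of all genes. The median log2 fold change of the members was 0.65 in WT and 0.74 in the labelled-KO libraries, against -0.04 and -0.05 over all genes. *Cdkn1a* passed the filter on low counts only through day 5, so it had to differ. Without it, 7 of 8 members were called in WT, 5 higher and 2 lower, and 5 of 8 for labelled-KO, 4 higher and 1 lower. The non-overlapping members were then 7 of 8 in each genotype, and the medians were 0.63 in both. CPM values are shares of a library, and in whole populations a change in the number of cells that carry an RNA cannot be told apart from a change in the amount per cell. Markers of other cells also moved with the day. The B-cell sum was 122 to 166 CPM at day 0 and 67.4 to 84.3 CPM at day 5, where *Cd79b* was called lower in both genotypes, and the myeloid sum was 10.3 to 19.0 CPM at day 0 and 4.06 to 5.87 CPM at day 5, where *Csf1r* was called lower in both. Their part in the changes over days was not tested.

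*Ccnd2* (chr6:127125162-127152193, minus strand, GRCm38) encodes cyclin D2 and had the highest CPM of the members in every library at day 0, without division by length. Its level was 1621 and 1851 CPM in WT at day 0 and 1662 and 1418 CPM in the labelled-KO libraries. At day 5 it was 968 and 847 CPM in WT and 1179 and 1029 CPM in the labelled-KO libraries. All 4 libraries of day 5 lay below all 4 of day 0. The log2 fold change was -0.94 ± 0.13 in WT (FDR = 7.2e-05) and -0.48 ± 0.13 in the labelled-KO libraries (FDR = 0.00755). In the labelled-KO libraries the call was lost without replicate 1 of day 0 (FDR = 0.0960), without replicate 2 of day 5 (FDR = 0.0918) and with an offset for GC content and exon length (log2 fold change -0.25, FDR = 0.123).

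*Ccnd3* (chr17:47505051-47599691, plus strand) encodes cyclin D3, a D-type cyclin that lymphocytes also use. It moved the other way. Its level was 54.02 and 55.4 CPM in WT and 60.9 and 53.2 CPM in the labelled-KO libraries at day 0, and 91.5 and 80.2 CPM in WT and 114 and 124 CPM in the labelled-KO libraries at day 5. No day 5 library overlapped the day 0 range, and both day 5 libraries labelled KO were above both of WT. The rise was 1.57-fold in WT (log2 0.65 ± 0.15, FDR = 0.00303) and 2.08-fold in the labelled-KO libraries (log2 1.05 ± 0.14, FDR = 6.65e-05). With an offset for GC content and exon length the WT value was 1.32 on the log2 scale (FDR = 1.41e-05).

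The kinase genes rose in both genotypes. *Cdk4* (chr10:127063534-127067920, plus strand) was at 289 and 317 CPM in WT and at 239 and 219 CPM in the labelled-KO libraries at day 0, and at 712 and 552 CPM in WT and 684 and 699 CPM in the labelled-KO libraries at day 5. The WT libraries of day 5 were widely spaced, with those labelled KO between them. The rise was 2.09-fold in WT (log2 1.06 ± 0.14, FDR = 3.82e-05) and 3.01-fold in the labelled-KO libraries (log2 1.59 ± 0.14, FDR = 1.07e-06).

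*Cdk6* (chr5:3341485-3531008, plus strand), which encodes the other partner of the D-type cyclins, was at 46.1 and 45.7 CPM in WT and at 39.6 and 40.2 CPM in the labelled-KO libraries at day 0. At day 5 it reached 476 and 405 CPM in WT and 432 and 409 CPM in the labelled-KO libraries, a range in which the genotypes overlapped. The rise was 9.59-fold in WT (log2 3.26 ± 0.14, FDR = 1.47e-09) and 10.53-fold in the labelled-KO libraries (log2 3.40 ± 0.14, FDR = 8.16e-10). *Cdk6* thus had the second largest rise among the members after *Cdkn1a*.

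The bases before the RefSeq starts of both kinase genes (build GRCm38.p6, plus strand, 250 bases) are shown. Capitals mark CACGTG, the E-box that MYC-type factors can bind, and the GC box GGGCGG or its reverse complement, both searched on both strands. No matches in these windows overlap.
Cdk4, chr10:127063285-127063534: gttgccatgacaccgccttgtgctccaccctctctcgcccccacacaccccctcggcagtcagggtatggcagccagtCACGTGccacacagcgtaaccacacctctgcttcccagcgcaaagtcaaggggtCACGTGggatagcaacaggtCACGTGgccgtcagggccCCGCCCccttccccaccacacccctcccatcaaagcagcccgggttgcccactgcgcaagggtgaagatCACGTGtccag
Cdk6, chr5:3343643-3343892: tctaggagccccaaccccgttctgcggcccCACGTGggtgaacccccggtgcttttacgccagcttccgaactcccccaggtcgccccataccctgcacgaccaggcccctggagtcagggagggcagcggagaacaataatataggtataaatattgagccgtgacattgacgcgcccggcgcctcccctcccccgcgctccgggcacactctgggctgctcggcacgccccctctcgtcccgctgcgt
The *Cdk4* window held CACGTG 4 times, at 172, 118, 98 and 11 bases before the start, and 1 GC box at 80 bases. The *Cdk6* window held CACGTG 1 time, at 220 bases. CACGTG was found in 6.02% and the GC box in 32.7% of 32851 windows of the same length, and these matches describe letters only. *Ccnd3*, *Cdkn1a* and *Cdkn2d* also rose in both genotypes, and their windows held no CACGTG.

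*Rb1* (chr14:73183673-73325822, minus strand) encodes the retinoblastoma protein. It was at 84.1 and 69.9 CPM in WT and at 81.8 and 77.8 CPM in the labelled-KO libraries at day 0, and at 55.4 and 48.7 CPM in WT and 61.4 and 64.6 CPM in the labelled-KO libraries at day 5. Every day 5 value lay below every day 0 value. In WT it fell by 0.56 on the log2 scale (SE 0.16, FDR = 0.00965), a call lost without replicate 1 of day 0 (FDR = 0.113) or replicate 2 of day 5 (FDR = 0.0707). In the labelled-KO libraries the log2 fold change was -0.34 ± 0.15 (FDR = 0.0787), and it passed when libraries were scaled by their totals (FDR = 0.00993) and in a fit on the 4 libraries alone (FDR = 0.0485).

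Among the inhibitors, *Cdkn1a* (chr17:29090976-29100727, plus strand), which encodes p21, showed the widest difference. It had 1 count in each WT library and 5 and 1 counts in the labelled-KO libraries at day 0, that is, 0.179, 0.226, 0.429 and 0.184 CPM. At day 5 it had 1287 and 840 counts in WT, or 227 and 202 CPM, and 1895 and 2007 counts in the labelled-KO libraries, or 349 and 380 CPM. The 4 groups fell into a near-absent pair at day 0 and a pair at day 5 in which the genotypes did not overlap. The ratio of day 5 to day 0, from 2127 against 2 counts in WT, was 1084 with an exact 95% counting interval from 299.8 to 8961. From 3902 against 6 counts in the labelled-KO libraries it was 1038, with an interval from 476 to 2830.1. *Cdkn1a* passed the filter on low counts only through day 5, so that a difference between the days was fixed in advance. Both intervals cover counting error only, without the spread between libraries.

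RefSeq gives *Cdkn1a* 2 starts, and the 250 bases before each are shown for the member whose level differed most between days and between genotypes. Capitals mark the p53 half-site consensus in the first window and the GC box in the second. Both are on the plus strand of GRCm38.p6.
Cdkn1a, chr17:29090729-29090978: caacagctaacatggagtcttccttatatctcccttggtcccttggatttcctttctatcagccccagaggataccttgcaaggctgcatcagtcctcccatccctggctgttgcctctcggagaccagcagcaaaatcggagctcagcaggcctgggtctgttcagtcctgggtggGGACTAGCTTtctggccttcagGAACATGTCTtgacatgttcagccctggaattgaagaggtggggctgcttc
Cdkn1a, chr17:29093519-29093768: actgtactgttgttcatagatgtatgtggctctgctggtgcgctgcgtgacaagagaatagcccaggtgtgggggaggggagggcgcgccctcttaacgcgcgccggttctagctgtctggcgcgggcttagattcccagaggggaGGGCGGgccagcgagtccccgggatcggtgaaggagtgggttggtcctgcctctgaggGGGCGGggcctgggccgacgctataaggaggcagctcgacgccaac
The first window held the p53 half-site 2 times, at 73 and 51 bases before the start, a motif found in 7.13% of 32851 windows. The second held the GC box 2 times, at 104 and 46 bases. Of the E2F-type sequences searched on both strands, TTTCCCGC was found in 0.895% and TTTGGCGC in 0.417% of all windows. Among the 8 members with an entry, TTTCCCGC matched 1 time, before *Cdkn2a*, and TTTGGCGC matched none.

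*Cdkn1b* (chr6:134920401-134925513, plus strand), which encodes p27, was at 21.5 and 18.8 CPM in WT and 19.4 and 21.1 CPM in the labelled-KO libraries at day 0, and at 18.0 and 20.7 CPM in WT and 13.6 and 20.3 CPM in the labelled-KO libraries at day 5. The ranges of the 4 groups overlapped. The log2 fold change was -0.06 with a 95% interval from -0.57 to 0.45 in WT (FDR = 0.848) and -0.25 with an interval from -0.75 to 0.25 in the labelled-KO libraries (FDR = 0.378). These intervals leave room for changes of a size that was called for *Rb1*.

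*Cdkn2c* (chr4:109660876-109667189, minus strand) encodes the INK4 protein p18. It was at 8.94 and 4.52 CPM in WT and 7.63 and 9.54 CPM in the labelled-KO libraries at day 0, and at 14.8 and 17.1 CPM in WT and 13.6 and 14.8 CPM in the labelled-KO libraries at day 5. Every day 5 value was above every day 0 value. In WT the rise was 2.32-fold (log2 1.21 ± 0.32, FDR = 0.00707), and the call was lost without replicate 2 of day 0, the library with the lowest value (log2 0.84, FDR = 0.0581). Without replicate 1 of day 0 the rise was 3.53-fold (log2 1.82, FDR = 0.00278). In the labelled-KO libraries the log2 fold change was 0.74 ± 0.30 (FDR = 0.0564), and it passed in 5 of 17 alternatives, with FDR between 0.0271 and 0.224 over all of them.

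*Cdkn2d* (chr9:21288410-21291407, minus strand) encodes the INK4 protein p19. It was at 266 and 248 CPM in WT and 284 and 293 CPM in the labelled-KO libraries at day 0, and at 374 and 406 CPM in WT and 393 and 437 CPM in the labelled-KO libraries at day 5. It rose 1.51-fold in WT (log2 0.60 ± 0.12, FDR = 0.00113) and 1.44-fold in the labelled-KO libraries (log2 0.53 ± 0.12, FDR = 0.00246). With an offset for GC content and exon length the second call was lost (log2 0.29, FDR = 0.0593). *Cdkn2a* (chr4:89274471-89294653, minus strand), which encodes p16 and the ARF protein from overlapping frames, had 0 counts in 6 libraries and 1 count in replicate 1 of the labelled-KO libraries at day 0 and in replicate 1 of WT at day 5, which is under the floor of 3 counts in every library.

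Part of some members' exons lies opposite exons of another gene, and the strand setting of the counting is not given in the sources used here, so reads there could not be assigned to a strand. The share was 19.7% of the exon length of *Cdk4* (641 bases with *Tspan31*), 14.9% of *Rb1* (488 bases with *Rcbtb2* and 408 with *Lpar6*), 7.86% of *Ccnd2*, 7.68% of *Cdkn1a*, 4.11% of *Ccnd3* and 2.63% of *Cdk6*. It was 0 for the other 4 members. *Tspan31* was at 57.3 to 103 CPM at day 0 and 312 to 359 CPM at day 5, in the direction of *Cdk4*. *Lpar6* was at 243 to 276 CPM at day 0 and 93.0 to 126 CPM at day 5, in the direction of *Rb1*. *Rcbtb2*, which shares more bases with *Rb1*, was at 63.1 to 101 CPM at day 0 and 92.2 to 106 CPM at day 5, and in WT both day 5 libraries were above both of day 0, opposite to *Rb1*. *Gm43126*, opposite *Ccnd2*, was at 65.8 to 94.7 CPM at day 0 and 30.9 to 40.3 CPM at day 5, in the direction of *Ccnd2*. The part of these genes in the values of *Cdk4*, *Rb1* and *Ccnd2* was not tested.

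**Figure D2:**
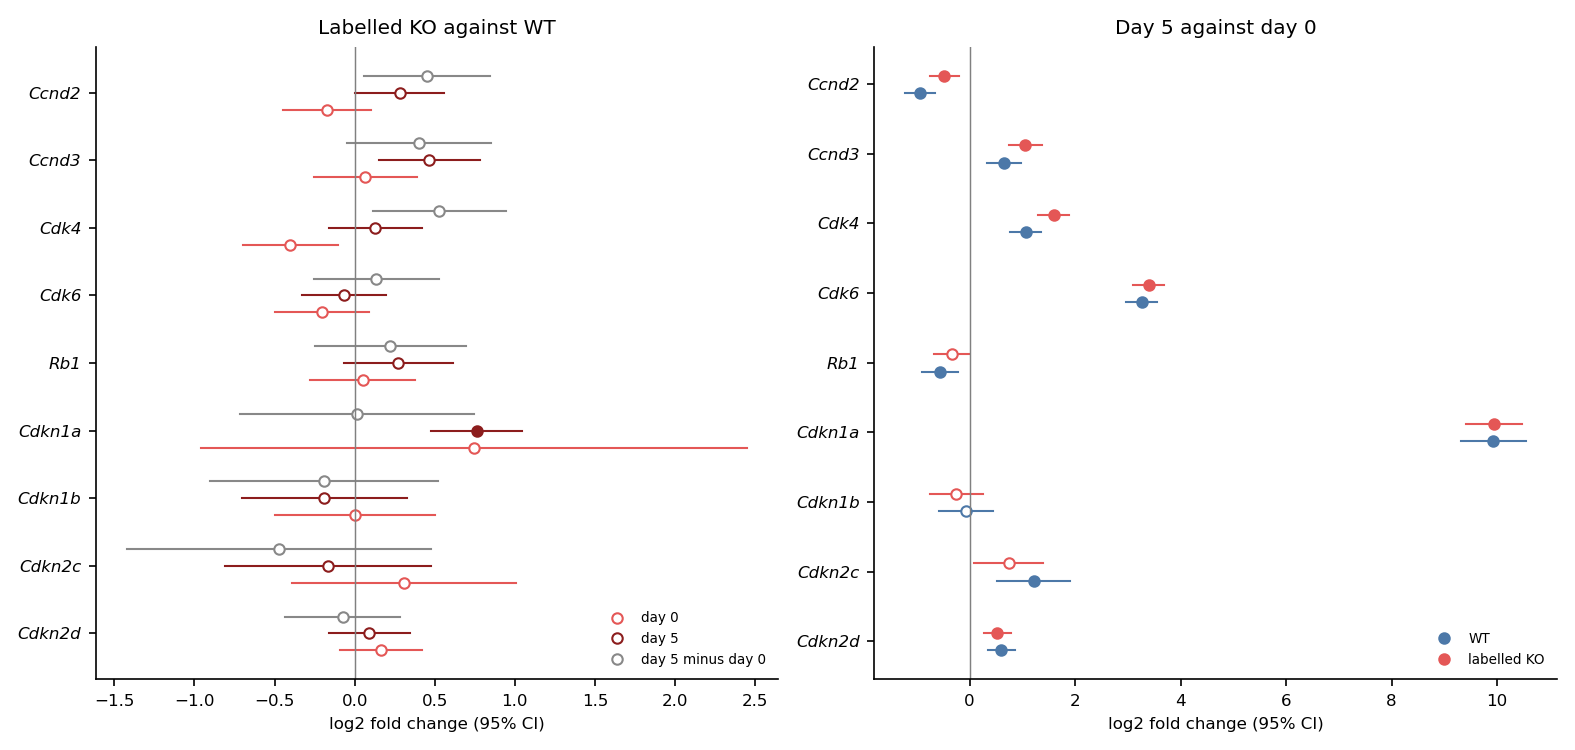
Log2 fold changes (points) with 95% confidence intervals (lines) of the 9 tested members, for labelled KO against WT on the left and day 5 against day 0 on the right; filled points had FDR under 0.05. On the left only *Cdkn1a* at day 5 is filled. On the right *Cdk6* and *Cdkn1a* stand far from 0, and the *Cdkn1a* estimates of 9.93 and 9.94 rest on the few day 0 counts (10.79 for labelled KO without replicate 1 of day 0).

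The genotypes were then compared within each day, which asks whether the labelled-KO libraries differ from WT before and after culture. At day 0 none of the 9 tested members was called by edgeR, against 1.8% of all genes tested (0.913% higher and 0.889% lower), and DESeq2 also called 0. At an unadjusted p under 0.05 there was 1 of 9 members, against 1742 of the 12597 genes tested. This was *Cdk4*, lower in the labelled-KO libraries by 0.40 on the log2 scale (95% interval -0.69 to -0.11, FDR = 0.201). *Cdk4*, *Cdk6* and *Cdkn2d* did not overlap between the genotypes at day 0, 3 of 9 members against 43.4% of all genes. For *Cdk6*, the log2 fold change was -0.20 ± 0.13 (FDR = 0.571), and for *Cdkn2d* it was 0.16 ± 0.12 (FDR = 0.607). The median over the members was 0.05. Summed B-cell markers were at 122 to 124 CPM in WT and 143 to 166 CPM in the labelled-KO libraries at day 0. Summed CD8 T-cell markers were at 9809 to 10683 CPM and 9521 to 9629 CPM in the same order. The other marker sums overlapped, no tested gene of the marker lists was called, and the part of these values was not tested.

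At day 5, 1 of 9 tested members was called, against 1.63% of all genes (1.31% higher and 0.318% lower). This was *Cdkn1a*, the p21 gene, whose libraries labelled KO at 349 and 380 CPM both exceeded the WT libraries at 227 and 202 CPM. The difference was 1.70-fold (log2 0.76 ± 0.13, 95% interval 0.48 to 1.05, FDR = 0.0131). The call was lost without 3 of the 4 libraries of day 5 in turn. Without replicate 2 of WT the FDR was 0.0696, without replicate 1 of the labelled-KO libraries 0.0878 and without replicate 2 of them 0.225, while the log2 fold change over all 17 alternatives stayed between 0.60 and 0.86. Fitted on the 4 libraries of day 5 alone, without the day 0 libraries whose *Satb1* level goes against the label, the FDR was 0.0341.

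Beside *Cdkn1a*, some summed markers did not overlap between the genotypes at day 5, as was so for 45.6% of all genes tested. The summed CD8 T-cell markers were at 6160 to 6411 CPM in WT and at 6858 to 6871 CPM in the labelled-KO libraries, where *Cd8a* was called higher (log2 0.60 ± 0.11, FDR = 0.0155) and the other 4 were not called. Summed myeloid markers were at 4.06 to 4.58 CPM in WT and 5.15 to 5.87 CPM in the labelled-KO libraries. Summed B-cell markers were at 67.4 to 68.9 CPM and 81.1 to 84.3 CPM in the same order, and those of NK cells at 0.964 to 1.41 CPM and at most 0.189 CPM. The tested myeloid and B-cell markers *Csf1r* (FDR = 0.889), *Itgam* (FDR = 0.447) and *Cd79b* (FDR = 0.415) were not called by edgeR, and no NK-cell gene was tested. The part of these values in the result was not tested. Summed proliferation markers overlapped, at 4500 to 4508 CPM in WT and 4399 to 4781 CPM in the labelled-KO libraries.

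The other 8 tested members were not called at day 5. *Ccnd3* had a log2 fold change of 0.47 ± 0.14 (FDR = 0.143) with no overlap between the genotypes. *Ccnd2* had 0.28 ± 0.13 (FDR = 0.347) and *Rb1* 0.27 ± 0.16 (FDR = 0.474), also with no overlap. In all, 5 of 9 members did not overlap, against 45.6% of all genes. *Cdk6* had a log2 fold change of -0.07 with a 95% interval from -0.33 to 0.19, *Cdk4* 0.13 with an interval from -0.16 to 0.42, and *Cdkn2d* 0.09 with an interval from -0.16 to 0.34. The median over the members was 0.13.

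An interaction term tested if the difference between genotypes was itself different at day 5 from day 0, as the log2 fold change of labelled KO against WT at day 5 minus that at day 0. None of the 9 members was called by edgeR or by DESeq2, against 0.159% of all genes by edgeR (0.0794% higher and 0.0794% lower). At an unadjusted p under 0.05 there were 2 of 9 members, against 1562 of the 12597 genes tested. These members were *Cdk4* at 0.53 ± 0.19 (FDR = 0.299) and *Ccnd2* at 0.45 ± 0.18 (FDR = 0.339). Both were the members whose labelled KO libraries had lower means than WT at day 0 and higher means at day 5. For *Cdkn1a* the interaction was 0.02 with a 95% interval from -0.71 to 0.75, with 8 counts at day 0 in all, and its sign changed in 8 of 16 alternatives. The call of *Cdkn1a* at day 5 is therefore not shown to be particular to day 5.

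Levels were compared between members per kilobase of exon, in CPM per kb, with the exons of all annotated transcripts of a gene merged. This merged 21 transcripts for *Ccnd3* and 3 for *Cdkn2d*. The order and the shares between members depend on these lengths, and no other length was used. In WT at day 0 the order was *Ccnd2* at 184 ± 17.3 (SD, n = 2), *Cdkn2d* at 163 ± 7.93 and *Cdk4* at 93.2 ± 6.07, followed at a distance by *Rb1* at 12.8 ± 1.67, *Ccnd3* at 6.23 ± 0.111, *Cdkn1b* at 4.42 ± 0.419, *Cdk6* at 3.28 ± 0.0239 and *Cdkn2c* at 2.51 ± 1.16. *Cdkn1a* stood at 0.0570 CPM per kb. The ranges of *Cdk6* and *Cdkn2c* overlapped and those of the other neighbours did not. In the labelled-KO libraries at day 0 *Cdkn2d*, at 183 ± 4.38, stood above *Ccnd2*, at 164 ± 18.3, without overlap, and *Cdkn2c* and *Cdk6* again overlapped.

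At day 5 the order in both genotypes was *Cdkn2d*, *Cdk4*, *Ccnd2*, *Cdkn1a*, *Cdk6*, *Ccnd3*, *Rb1*, *Cdkn2c* and *Cdkn1b*. In WT the values ran from 248 ± 14.5 CPM per kb for *Cdkn2d* and 195 ± 34.8 for *Cdk4* to 4.25 ± 0.425 for *Cdkn1b*. *Cdkn1a* came after *Ccnd2*, at 60.4 ± 4.89 in WT and 103 ± 6.26 in the labelled-KO libraries. *Ccnd3* and *Rb1* overlapped in WT, and no other neighbours in this order did.

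**Figure D3:**
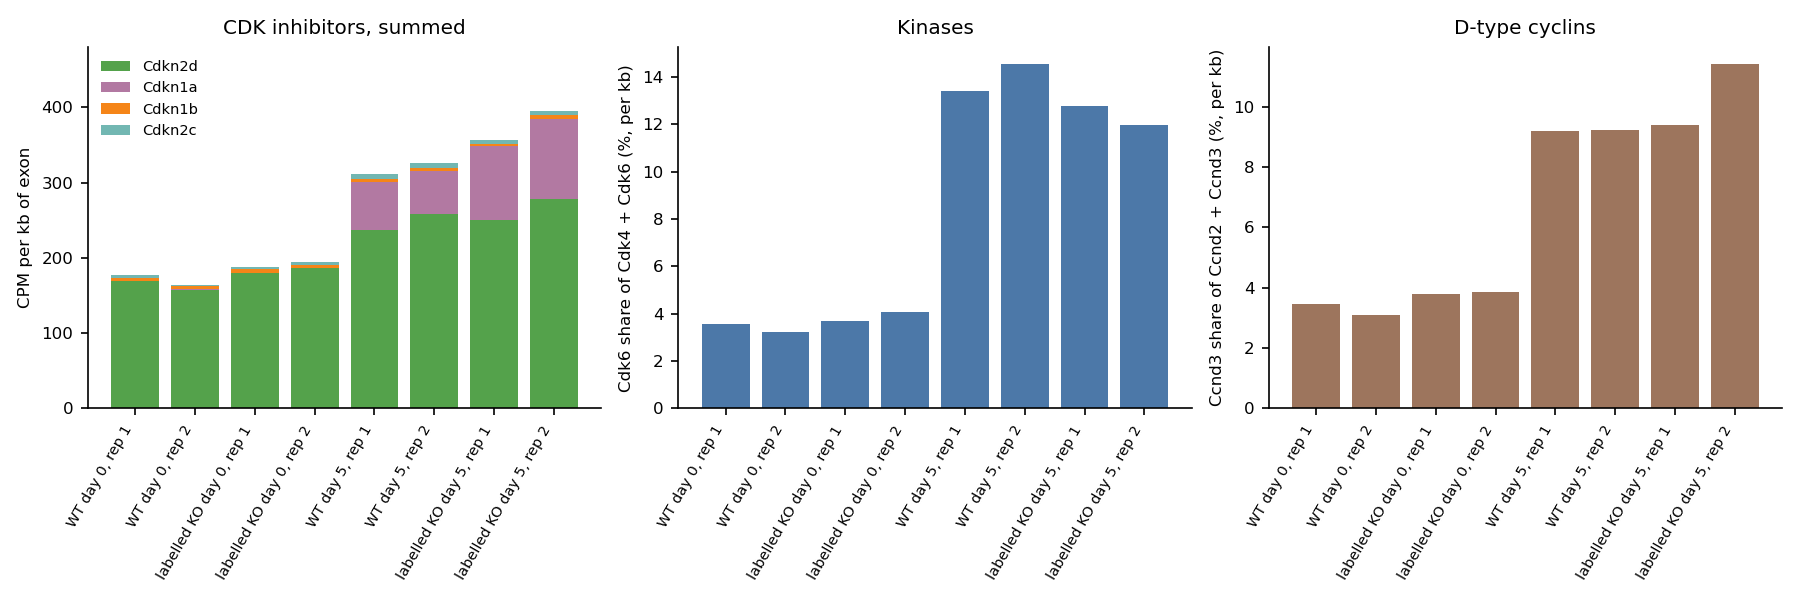
Make-up of the family in each of the 8 libraries. The left panel stacks the CDK inhibitors in CPM per kb of exon, without *Cdkn2a*, which would be too thin to see; the others give *Cdk6* as a percent of *Cdk4* plus *Cdk6* and *Ccnd3* as a percent of *Ccnd2* plus *Ccnd3*, per kb. *Cdkn2d* makes up nearly all of the inhibitor bar at day 0, and a *Cdkn1a* segment appears at day 5 that is taller in the labelled-KO libraries.

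Per kilobase, *Cdkn2d* made up between 95.4% and 96.4% of the summed inhibitor level at day 0 and between 70.2% and 79.2% at day 5. *Cdkn1a* made up between 0.0265% and 0.0644% at day 0. At day 5 its share was 17.5% to 20.5% in WT and 27.1% to 27.5% in the labelled-KO libraries. The summed inhibitor level was 164 to 195 CPM per kb at day 0 and 311 to 395 at day 5, and that of the kinase genes was 70.3 to 101 at day 0 and 199 to 253 at day 5. The summed D-type cyclins were at 157 to 203 CPM per kb at day 0 and 99.1 to 138 at day 5.

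Within the kinase pair, *Cdk6* made up 3.24% to 4.09% of the sum at day 0 and 11.97% to 14.5% at day 5. Within the cyclin pair, the ratio of *Ccnd2* to *Ccnd3* was 24.9 to 31.2 at day 0 and 7.76 to 9.87 at day 5, so that *Ccnd2* remained the more abundant of both in every library. For both pairs the ranges of the days did not overlap.

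The rest of the pathway was described through 7 lists of 62 genes, of which 59 were tested. In WT 37 rose and 5 fell from day 0 to day 5, and in the labelled-KO libraries 33 rose and 9 fell. Over all genes tested, 24.7% were higher and 23.6% lower in WT, and 26.2% were higher and 24% lower for labelled-KO. Like *Cdkn1a*, 6 of these genes (*Cdkn3*, *E2f7*, *E2f8*, *Ccnb1*, *Cdk1* and *Aurkb*) passed the filter on low counts only through day 5 and had to be higher there, and *Ccnd1* and *Fbxo31* passed only through day 0. Among the other 51 genes, a split made after the values were seen, 31 rose and 5 fell in WT, and 27 rose and 8 fell for labelled-KO, to be read against the same shares of all genes. The nearest relatives of the members came first. *Ccne2*, one of the genes of cyclin E, the partner of CDK2 late in G1, rose from 6.54 to 180 CPM in WT (log2 4.77 ± 0.21, FDR = 1.91e-09) and from 5.68 to 126 CPM in the labelled-KO libraries (log2 4.40 ± 0.20, FDR = 2.28e-09). *Cdk2* rose by 1.42 ± 0.18 and 1.69 ± 0.18 on the log2 scale. *Ccne1* rose in WT (log2 1.03 ± 0.30, FDR = 0.0124) and had 0.70 ± 0.30 in the labelled-KO libraries (FDR = 0.0677).

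The D-type cyclin gene *Ccnd1* stayed near detection, with group means from 1.43 to 2.61 CPM and no call in any comparison. Of the pocket protein genes related to *Rb1*, *Rbl1* rose in WT (log2 0.71 ± 0.21, FDR = 0.0135) and had 0.15 ± 0.20 in the labelled-KO libraries (FDR = 0.558), while *Rbl2* was not called in either. In the list of these relatives and of the CDK-activating kinase, 6 of 9 rose in WT, where 24.7% of all genes were higher. In the labelled-KO libraries 4 of 9 rose and *Cdk7*, the catalytic subunit of that kinase, fell (log2 -0.38 ± 0.13, FDR = 0.0301), and 5 of 9 called is near the 50.2% of all genes. Its partners *Ccnh* and *Mnat1* rose in both genotypes, *Ccnh* from 82.7 to 216 CPM and *Mnat1* from 40.8 to 88.5 CPM in WT.

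Of 3 other inhibitor genes, *Cdkn1c* and *Cdkn2b* had at most 1 count in any library and were not tested. *Cdkn3*, which encodes a CDK-associated phosphatase, passed the filter only through day 5, with 3 to 14 counts in the day 0 libraries and 543 to 909 in those of day 5, so its higher level at day 5 was fixed by the filter.

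Among E2F and DP factors, 6 of 10 rose in WT and none fell, and 5 rose and *E2f5* fell (12.9 to 6.43 CPM, FDR = 0.0130) in the labelled-KO libraries. These counts include the repressor genes *E2f8* and *E2f7*, which passed the filter only through day 5, and without them 4 of 8 rose in WT, and 3 rose and 1 fell in labelled-KO libraries. With 4 of 8 called in each genotype, the list was near the shares of all genes called, 48.3% and 50.2%. *E2f8* had 0 to 2 counts in the day 0 libraries and 72 to 156 at day 5, and *E2f7* had 1 to 3 and 58 to 67, so that both lay at or under the floor at day 0. *E2f1*, an activator, rose by 2.42 ± 0.42 in WT and 2.86 ± 0.41 in the labelled-KO libraries, and the dimer partner *Tfdp1* rose by 2.11 ± 0.18 and 2.69 ± 0.18. E2F target genes of S phase rose in 13 of 14 cases in WT and 14 of 14 in the labelled-KO libraries, where 24.7% and 26.2% of all genes were higher. Their median log2 fold changes were 1.94 and 1.81, against -0.04 and -0.05 over all genes. *Rrm2*, a subunit gene of ribonucleotide reductase, went from 6.34 to 889 CPM in WT. *Cdc6*, which licenses replication origins, went from 1.96 to 230 CPM. *Tyms*, which makes thymidylate, rose by 2.92 ± 0.23 and 3.04 ± 0.23.

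Of 10 genes for the turnover of cyclins and inhibitors, 5 were called higher and 1 lower in WT, against 24.7% and 23.6% of all genes. In the labelled-KO libraries 3 were higher and 2 lower, against 26.2% and 24%. Among these 2, *Fbxo31* passed the filter only through day 0 and had to be lower at day 5. Without it 3 of 9 were higher and 1 lower in the labelled-KO libraries, and 5 of 9 were higher and 1 lower in WT. *Skp2* and *Cks1b*, which together mark p27 for destruction, rose by 2.29 ± 0.24 and 5.02 ± 0.18 in WT and by 1.57 ± 0.23 and 4.999 ± 0.18 in the labelled-KO libraries. *Fzr1*, an activator of the anaphase-promoting complex, rose by 1.71 ± 0.27 and 1.86 ± 0.25. *Skp1a*, the adaptor of SCF ubiquitin ligases, fell in both, by 0.62 and 0.60 on the log2 scale.

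Upstream factors of the inhibitors fell where they were called, 4 of 9 tested in WT and 5 of 9 in the labelled-KO libraries. These shares are near those of all genes called in either direction, 48.3% and 50.2%, of which 23.6% and 24% were lower. *Btg1*, an antiproliferative gene, went from 325 to 65.5 CPM in WT and from 318 to 50.9 CPM in the labelled-KO libraries. *Klf2*, a factor of lymphocyte quiescence, went from 43.7 to 9.93 CPM and from 47.3 to 7.65 CPM. *Btg2* went from 311 to 79.7 CPM and from 445 to 96.7 CPM, and *Foxo1*, whose product can drive *Cdkn1b*, from 124 to 50.7 CPM and from 138 to 46.2 CPM. *Trp53*, the p53 gene, was not called in WT (log2 -0.21 ± 0.13, FDR = 0.214) and fell in the labelled-KO libraries (log2 -0.39 ± 0.13, FDR = 0.0284).

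Of the 6 proliferation markers, *Ccnb1*, *Cdk1* and *Aurkb* passed the filter only through day 5 and had to be higher there, and the other 3 (*Mki67*, *Top2a* and *Birc5*) rose in both genotypes. The sum of all 6 went from 20.2 to 30.6 CPM at day 0 to 4399 to 4781 CPM at day 5. *Mki67*, which encodes the Ki-67 antigen, was at 2.60 and 4.32 CPM in the day 0 groups and at 556 and 599 CPM in the day 5 groups. The part of the share of dividing cells in the members' changes was not tested.

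**Figure D4:**
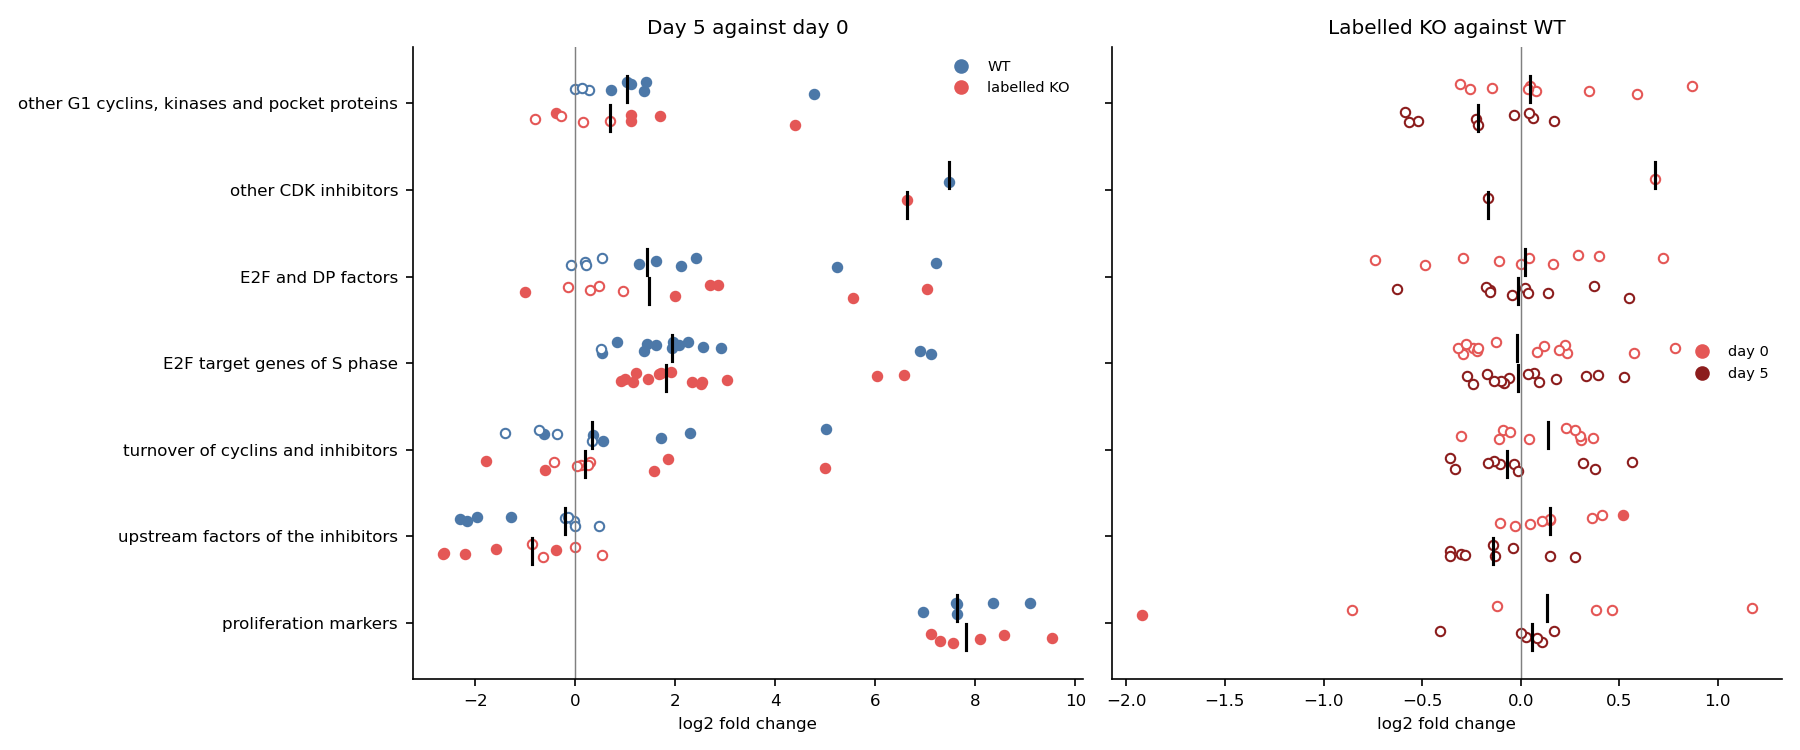
Log2 fold changes of the 59 tested genes in 7 pathway lists, for day 5 against day 0 on the left and labelled KO against WT on the right, with a wider scale on the left. Each point is a gene, filled points had FDR under 0.05 and black bars are list medians. On the left all proliferation markers lie between 6.96 and 9.54; on the right 2 genes are filled, both at day 0.

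Between the genotypes few of the pathway genes passed. At day 0, 2 of 59 were called, against 1.8% of all genes. *Btg2* was higher, at 462 and 428 CPM in the labelled-KO libraries against 299 and 323 CPM in WT (log2 0.52 ± 0.12, FDR = 0.0449). *Birc5*, which encodes the mitotic protein survivin, was lower, with 12 and 1 counts in the labelled-KO libraries against 17 and 12 in WT (log2 -1.92 ± 0.42, FDR = 0.0404). Both calls were lost with a replicate block, without either WT library of day 0, without replicate 2 of the labelled-KO libraries at day 0, and without either of them at day 5. *Btg2* alone was also lost without replicate 1 of the labelled-KO libraries at day 0, where *Birc5* went to -3.82 on the log2 scale. *Birc5* alone was also lost with the 4 libraries of day 0 alone, with the edgeR 4 form, with the GC and length offset, and without either WT library of day 5. At day 5 none of the 59 was called by edgeR, against 1.63% of all genes. At an unadjusted p under 0.05 by edgeR there were 7, against 1775 of the 12597 genes tested, and at day 0 there were 6, against 1742. DESeq2 called 1 of the 59 at day 5, against 319 over all genes. This was *Cdk7*, at 80.9 and 87.9 CPM in the labelled-KO libraries against 121 and 129 CPM in WT (log2 -0.56, FDR = 0.0246, against -0.57 and 0.0558 by edgeR). With edgeR, *Cdk7* was also called with scaling by library totals (FDR = 0.0493) and with a filter of 5 CPM in 2 libraries (FDR = 0.0473), and *Mcm7*, a replication helicase gene, without replicate 1 of WT at day 5 (log2 0.62, FDR = 0.0467). In the interaction edgeR called none, and 10 of the 59 had an unadjusted p under 0.05, against 1562 of the 12597 genes tested. *Birc5* was called there by DESeq2 (log2 1.94, FDR = 0.0164) and by edgeR with no filter on low counts (log2 1.89, FDR = 0.0147). Over all genes these fits called 139 and 154.

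Genes whose pattern was most like each member were found among 8004 genes with a mean of at least 10 CPM, as those with the smallest root mean square difference of centred log2 CPM over the 8 libraries. The values below describe resemblance in libraries that share their days and depths. For *Ccnd2* the nearest were *Tyw3* (difference 0.05) and *Lsp1* (0.09), and for *Ccnd3* they were *Aldh18a1* (0.07) and *Bcat2* (0.08). *Cdk4* lay nearest to *Eif5a* (0.11) and *Dpagt1* (0.11), and *Cdk6* to *Tex2* (0.11) and *Kpna2* (0.13). *Rb1* lay nearest to *Lrrc28* (0.07) and *Ankrd44* (0.08).

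Among the inhibitors, *Cdkn1b* lay nearest to *Rnaseh2c* (0.06) and *Zfp677* (0.08), *Cdkn2c* to *Sass6* (0.15) and *Sec24a* (0.16), and *Cdkn2d* to *Fbxo3* (0.05) and *Slc25a36* (0.06). *Cdkn1a* had no close match. Its nearest were *Kif2c* (0.43), a mitotic kinesin gene, and *Il2ra* (0.46), which encodes the alpha chain of the interleukin-2 receptor. *Kif2c* was at 0.494 and 0.753 CPM in the day 0 groups and at 268 and 303 CPM in the day 5 groups, the higher value in the labelled-KO libraries on each day. *Il2ra* was at 2.48 and 5.52 CPM at day 0 and at 1945 CPM in WT and 1804 CPM in the labelled-KO libraries at day 5, so that at day 5 its means were in the opposite order to those of *Cdkn1a*.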

How the data were processed

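Per the labels, total RNA was made into libraries and read at 50 bp, and the submitters' processing notes name HISAT2 2.1.0, HTSeq 0.11.1 and the genome mm10 (GRCm38). The authors deposited 1 table of raw counts by gene symbol per library, neither normalized nor pooled. Lines that named no gene were left out, and genes held 21.2% to 24.5% of the records. Records outside any gene were 30.4% to 33.7% at day 0 and 27.5% to 29.1% at day 5. Genes with a count numbered 21731 to 26002 at day 0 and 17040 to 20127 at day 5. The part of these measures in the changes over days was not tested.

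Counts were tested with edgeR 4.0.16 in R 4.3.3 by 1 quasi-likelihood fit over all 8 libraries (trimmed mean of M-values factors, group means, minimum count 10), with two-sided p-values and Benjamini-Hochberg FDR across 12597 genes and calls at FDR under 0.05. The common biological coefficient of variation was 15.0%. CPM used the scaled library size. Exon lengths and overlaps came from GENCODE M21, and upstream sequences from RefSeq (GRCm38.p6), where 8 of 10 members had an entry. The tests were checked on simulated data.

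The members and lists were chosen with earlier results of these data known. Beside all members and *Satb1*, genes were named by rule: up to 4 called genes with the largest change per list and comparison, 8 near relatives of the members, and the 2 genes most like each member. *Cdk7*, *Mcm7* and *Birc5* under alternatives, *Trp53*, the markers and genes opposite a member's exons were named after their values were seen. Alternatives were DESeq2 1.42.0, other scalings and filters, a replicate block, the 4 libraries alone, another quasi-likelihood form, an offset for base composition and length of exons (span 0.3; 96.7% of genes tested had both) and leaving out each library.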

Additional observations from a re-analysis of the deposited data

Results flagged for a closer look

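The genotype difference of *Satb1*, the targeted gene, differed between the days. The log2 fold change of labelled KO against WT at day 5 minus that at day 0 was -1.34 ± 0.21 by the interaction test of edgeR (FDR = 0.0269), with the labelled-KO libraries above WT in 2 of 2 libraries at day 0 and below it in 2 of 2 at day 5. The call was lost in 7 of 16 alternatives, 6 of which left out a library, and FDR ranged from 5.89e-05 to 0.230 while the value stayed between -1.49 and -1.15. The same test called 0 of 9 members, with 2 at an unadjusted p under 0.05 against 1562 of the 12597 genes tested, and DESeq2 called 0.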

How the results depend on the processing

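The count of members called stayed within 1.5 times its value in every alternative for day 0, for the change over days in both genotypes and for the interaction. At day 5 the 1 call was lost without replicate 2 of WT or without either labelled-KO library of that day, each of which left 1 library in a group. The log2 fold change of *Cdkn1a* stayed between 0.68 and 0.86 when each library was left out, and the cause of the lost call was not tested. Of 838 values of members and *Satb1* under alternatives, 783 kept direction and side of the threshold, 20 lost and 8 gained a call, and 27 changed sign, all of them for differences that were not called.

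The labels do not tie same-numbered libraries to 1 animal. Deviations of same-numbered libraries correlated at 0.118 between the WT days and 0.228 between the labelled KO days, and at -0.0742 to 0.00438 in the other pairs of groups. With the replicate number as a block the calls among members were 0, 1, 8, 6 and 0, as without it, and *Cdkn1a* at day 5 had log2 0.76 (FDR = 0.0165). The block took *Cdkn1b* at day 0 to -0.00142.

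Other sign changes were *Rb1* at day 0 with the GC and length offset (-0.0165), *Cdkn1b* at day 0 with the edgeR 4 form (-0.00781) and with the offset (-0.0240), and the interaction of *Cdkn1a* with library totals (-0.0266), no filter (-0.0174), DESeq2 (-0.0488) and the offset (-0.22). Leaving out libraries gave ranges at day 0 of -0.0444 to 0.188 for *Ccnd3*, -0.0769 to 0.192 for *Rb1*, -0.113 to 1.06 for *Cdkn1a*, -0.0913 to 0.104 for *Cdkn1b* and -0.0797 to 0.903 for *Cdkn2c*. At day 5 they were -0.0424 to 0.332 for *Cdk4*, -0.178 to 0.0626 for *Cdk6* and -0.504 to 0.0703 for *Cdkn1b*. Over days *Cdkn1b* ranged from -0.147 to 0.0626 in WT and from -0.558 to 0.0172 in the labelled-KO libraries. In the interaction the ranges were -0.00323 to 0.262 for *Cdk6*, -0.311 to 0.871 for *Cdkn1a*, -0.505 to 0.0695 for *Cdkn1b* and -0.15 to 0.00269 for *Cdkn2d*. The cause was not tested.

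Over all genes, calls at day 0 went from 227 to 434 with no filter, and to 38 and 49 without replicates 1 and 2 of WT. At day 5 they went from 205 to 418 with no filter, 319 with DESeq2, 133 with the offset and as low as 32 without a library. In the interaction they went from 20 to 154, 139 and 12 in the same order, and to 0 to 41 without a library. Scaling by library totals moved the median of all genes by -0.14 over days in WT and by -0.18 in the labelled-KO libraries, and called members kept their direction. The level of *Cdkn1a* at day 0 was limited by its 1 to 5 counts per library.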
